A study of Homo sapiens with 9 samples.

Results

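The genes described here are 47 human genes for cytosolic translation factors, taken by symbol from a table of 60325 gene rows. They cover 7 genes of elongation, among them EEF2K, the kinase of the factor eEF2, and 6 factors of scanning and start codon recognition. They also cover 3 subunits of eIF2, 5 of eIF2B and 13 of eIF3, 9 cap-binding and helicase factors, 2 4E-binding proteins and 2 release factors. Of the 47, 46 had at least 10 counts in at least 3 libraries, and the same 46 were among the 16796 genes tested. EEF1G was the exception, with 0 counts in 8 libraries and 2 counts in rescue library 2.

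RNA sequencing was done on LAPC4 cells, an established prostate cancer line that expresses the androgen receptor, all at day 30. The 3 groups, each of 3 libraries, were control cells (titled NT), cells labelled as UGT2B28 knockdown (titled KD4) and cells labelled as rescue, which carried the same knockdown and overexpressed UGT2B28 (titled KD4OE). Puromycin at 3 ug/mL is given as the selection drug of the knockdown and G418 at 1 mg/mL as that of the rescue, with none named for the control. UGT2B28 encodes an enzyme that attaches glucuronic acid to steroids. Since drug and group go together, their parts in any difference below cannot be told apart, and the labels do not say whether the replicates were separate cultures, so each p-value measures the spread between these libraries and no more.

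Translation begins when the cap-binding complex eIF4F, the ternary complex of eIF2 with the initiator tRNA, and the large scaffold eIF3 bring the small ribosomal subunit to the start codon. eEF1A then delivers each charged tRNA, eEF2 moves the ribosome along, and the release factors eRF1 and eRF3 end the chain. Puromycin mimics the end of a charged tRNA and cuts chains short on the ribosome, while G418 is an aminoglycoside that binds the ribosome and causes misreading, which is why these genes are of interest in a design that selects with both drugs. Many mRNAs of ribosomal proteins and translation factors begin with a C followed by a run of pyrimidines, known as the 5′ terminal oligopyrimidine motif, through which their translation follows mTORC1 activity.

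The annotated starts show which factors carry this feature. Each window below holds the 10 bases before and the 20 bases from a start annotated by RefSeq (GRCh38.p14), with the pyrimidine run in capitals; the run had to begin with C at the start itself and go on for at least 4 further letters that were each C or T, read on the sense strand only. The first 4 belong to members that passed a test below, the next 2 to EEF1A1 and EEF2, the central elongation factors, and the last 3, with no such run, to members that also passed.

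EEF1B2 (chr2:206159885-206159914, plus strand): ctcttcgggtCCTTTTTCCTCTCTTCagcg

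EIF2A (chr3:150546777-150546806, plus strand): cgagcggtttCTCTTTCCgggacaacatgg

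EIF3F (chr11:7987327-7987356, plus strand): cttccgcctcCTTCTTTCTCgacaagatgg

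EIF3M (chr11:32583821-32583850, plus strand): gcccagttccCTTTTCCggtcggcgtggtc

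EEF1A1 (chr6:73521013-73521042, minus strand): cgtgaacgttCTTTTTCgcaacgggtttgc

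EEF2 (chr19:3985444-3985473, minus strand): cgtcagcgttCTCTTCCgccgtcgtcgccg

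EIF3I (chr1:32222397-32222426, plus strand): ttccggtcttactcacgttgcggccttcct

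EIF2S1 (chr14:67360318-67360347, plus strand): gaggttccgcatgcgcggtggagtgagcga

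EIF4H (chr7:74174346-74174375, plus strand): ctcgctcaccctggttcctctcggagcgga

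Of the 39 members with a start in the table, 11 had the run at one of their starts: EEF1A1, EEF1B2, EEF2, EIF2A, EIF2S3, EIF3D, EIF3F, EIF3K, EIF3M, EIF4A2 and EIF4B. That is 28.2%, against 5.14% of the 27305 genes in the table and 70% of the 70 cytosolic ribosomal protein genes found there. A run describes the letters at an annotated start, which may not be the start used in these cells.

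The deposited counts per library summed to between 8132206 and 14185252, and the members took 1.69% to 1.94% of them. UGT2B28 was not lower in the libraries labelled knockdown (63, 70 and 28 counts, against 44, 50 and 76 in control), so directions refer to libraries with that label, while the rescue libraries held 539 to 1139 counts. Knockdown library 3 stood apart: in a chi-square test of gene counts, the statistic divided by its degrees of freedom was 3.46 for knockdown libraries 1 and 2, and 62.0 and 66.4 when either was set against library 3. In knockdown libraries 1 to 3, 12.1%, 11.6% and 6.72% of counts fell on ribosomal protein mRNAs and 11.5%, 12.05% and 8.59% on the 13 mitochondrially encoded mRNAs, the latter against at most 6.90% in any other library. All 12 markers of luminal prostate cells averaged at least 1 CPM in each group. PTPRC and LYZ, markers of white blood cells, were at 0 in all 9 libraries. The summed level of 7 fibroblast markers was 17.0 to 68.0 CPM in control, 36.3 to 40.8 in knockdown-labelled and 35.5 to 117 in rescue libraries, and its part in the results was not tested.

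Levels are given as CPM, counts per 1000000 scaled by TMM factors, which correct for a few abundant transcripts taking up a library. Per kilobase of coding sequence, in the control libraries, the most abundant member was EEF1A1, at 4859 ± 269 CPM (SD, n = 3). EIF5A, the hypusine-bearing factor that helps ribosomes through stretches such as prolines, followed at 2634 ± 150, EIF1 at 1274 ± 87.2 and EEF2 at 1019 ± 29.3. This measure divides the counts of whole genes by coding length alone, so a short coding sequence raises it. Before that division the order differed, with EEF2 at 2622 ± 75.5 CPM, EIF5A at 1217 ± 69.2 and EIF1 at 432 ± 29.6 in control. At the low end, EIF2B3, in the catalytic part of the exchange factor eIF2B, stood at 11.8 ± 0.589 CPM per coding kilobase. Below it lay EIF4A1 at 9.14 ± 0.790 and EIF3C at 4.14 ± 0.959, whose rows may hold only part of their reads, as follows.

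In GENCODE release 29, 99.9% of the exon bases of EEF1G (chr11:62559601-62574086, minus strand) lie under another gene on the same strand, AP002990.1, and 48.6% of those of EIF4A1 (chr17:7572706-7579005, plus strand) lie under AC016876.2, SENP3-EIF4A1 and SNORD10. For EIF3L (chr22:37848868-37889407, plus strand) the share is 41.1%, under AL022311.1. Of the stretches of 100 bases in the EIF3C transcripts (chr16:28688558-28735730, plus strand), 42.9% occur exactly in another gene, chiefly its near-identical copy EIF3CL. EIF3CL held 8 to 26 counts a library. Values of EIF3C, EIF3L and EIF4A1 below therefore describe the reads that could be assigned to one gene. Other members had smaller shares under genes on the same strand, such as 16.4% in EEF1B2 and 17.4% in EIF6. The annotation used for the deposited counts is not given, so these shares may differ from those that applied in the counting.

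**Figure D1:**
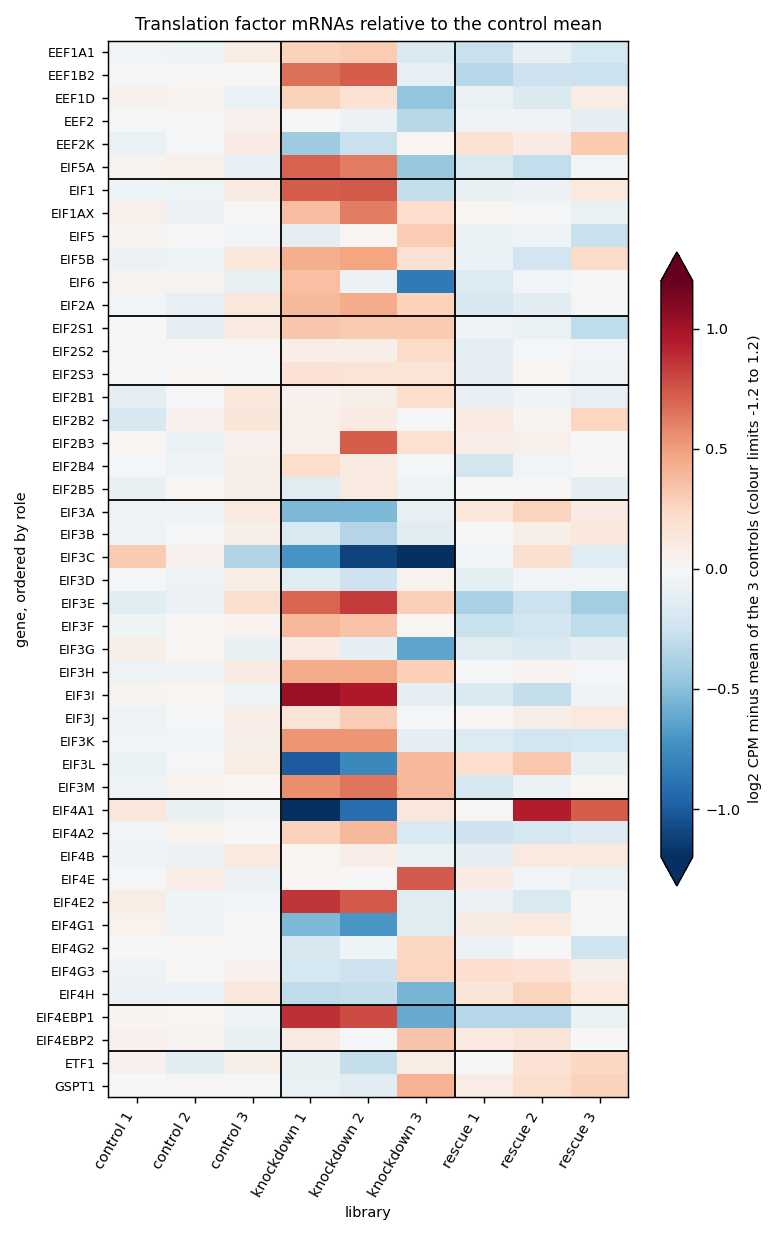
Level of the 46 tested translation factors (rows, by role) in the 9 libraries (columns), as log2 CPM minus the mean of the 3 control libraries; red is higher and blue lower, and colours end at 1.2 in either direction. Knockdown libraries 1 and 2 share most of their strong colours, while knockdown library 3 has the opposite sign to both for 22 of the 46 members.

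Knockdown-labelled and control libraries were compared to see which factors differ once cells are targeted for UGT2B28. No member reached an adjusted p under 0.05 (Benjamini-Hochberg) in edgeR's quasi-likelihood test (0 of 46, against 0.00595% of all genes tested), and limma-voom also called 0 (0.00595% of all genes). At an unadjusted p under 0.05 there were 14 members, against 19.1% of all genes. Of these, 10 were higher in the knockdown-labelled libraries and 4 lower, where 11.3% and 7.81% of all genes were. The DESeq2 Wald test called 6, with EIF2A, EIF3E, EIF3H and EIF3M higher and EIF3C and EIF4H lower, against 6.43% of the genes given an adjusted p, 3.69% higher and 2.74% lower. The members' median log2 fold change was 0.12, with 31 positive and 15 negative, and that of all genes was 0.02. With library size alone in place of TMM the all-gene median moved to -0.21 and the members' median to -0.10. In bulk RNA, fewer cells of a type and less RNA per cell cannot be told apart.

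The 3 largest positive changes were in EIF3I, EIF3E and EIF4E2, and the 3 largest negative ones in EIF3C, EIF4A1 and EIF4G1. EIF3E, a core subunit of eIF3 (chr8:108201216-108435333, minus strand), was at 200.5, 208 and 249.9 CPM in control and at 355, 392 and 266 in knockdown-labelled libraries, so that the groups did not overlap. Its log2 fold change was 0.62 (SE 0.16, edgeR adjusted p = 0.0967). EIF3I, a propeller-shaped subunit of eIF3 (chr1:32221928-32231604, plus strand), was at 252, 249.8 and 237 CPM in control and at 505, 479 and 227 in knockdown-labelled libraries. Knockdown libraries 1 and 2 were thus far above the controls and library 3 just below them, and the log2 fold change was 0.71 (SE 0.24, edgeR adjusted p = 0.161). EIF4E2, a relative of the cap-binding protein eIF4E that can repress translation, split in the same way, at 137, 126 and 68.0 CPM against 79.9, 72.8 and 73.4 in control (log2 fold change 0.55, SE 0.21, edgeR adjusted p = 0.203).

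Among the lower genes, EIF3C, a core subunit of eIF3, was at 13.9, 11.5 and 8.62 CPM in control and at 6.73, 5.03 and 3.37 in knockdown-labelled libraries. The groups did not overlap, and the log2 fold change was -1.17 (SE 0.28, edgeR adjusted p = 0.0876). EIF4G1, the scaffold that joins the cap-binding protein to eIF3 (chr3:184314495-184335358, plus strand), was at 593, 558 and 580.1 CPM in control and at 398, 355 and 521 in knockdown-labelled libraries. All 3 were below every control, with library 3 nearest (log2 fold change -0.44, SE 0.15, edgeR adjusted p = 0.165). EIF4A1, the main cap-complex helicase, was at 3.77 and 5.83 CPM in knockdown libraries 1 and 2 but at 12.2 in library 3, against 10.4 to 12.2 in control, and its log2 fold change was -0.61 (SE 0.38, edgeR adjusted p = 0.413).

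In 15 of the 46 members the knockdown-labelled and control libraries did not overlap, against 21.2% of all genes, 11% higher and 10.2% lower. The 10 that were higher were EIF1AX, EIF2A, EIF2B3, EIF2S1, EIF2S2, EIF2S3, EIF3E, EIF3H, EIF3M and EIF5B, and the 5 that were lower were EIF3A, EIF3B, EIF3C, EIF4G1 and EIF4H. All 3 subunits of eIF2, the GTP-binding carrier of the initiator tRNA, were thus on the higher side in every knockdown-labelled library. EIF2S3, the GTP-binding subunit, showed the narrowest values, at 107, 106 and 106 CPM against 93.9, 96.8 and 95.4, with a log2 fold change of 0.16 (SE 0.10, edgeR adjusted p = 0.407).

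Knockdown library 3 differed from libraries 1 and 2 in some members and not in others. Libraries 1 and 2 lay on the same side of the control mean for 40 of the 46 members, and library 3 lay on the opposite side for 22 of those and on the same side for 18. EIF2S1 and EIF2S3 had gaps of -0.01 each on the log2 scale between library 3 and the mean of the other two. In knockdown libraries 1 and 2, 56.5% and 52.2% of members were above every control and 30.4% and 32.6% below every control, where over all genes the shares were 37.7% and 37.5% above and 38% and 37.2% below. In library 3, 41.3% of members were above and 41.3% below, where over all genes 36.7% and 35.1% were.

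Taken as log2 CPM of library 3 minus the mean of libraries 1 and 2, the largest negative gaps were -1.44 in EIF4EBP1, -1.12 in EIF3I and -1.11 in EIF5A. The largest positive ones were 1.34 in EIF4A1, 1.28 in EIF3L and 0.73 in EIF4E. EIF4EBP1, the repressor that mTORC1 phosphorylates to free eIF4E (chr8:38030341-38060365, plus strand), was at 328 and 308 CPM in libraries 1 and 2 and at 117 in library 3, against 171 to 183 in control. EIF4E itself, the cap-binding protein (chr4:98871684-98930637, minus strand), was at 46.0 and 45.5 CPM in libraries 1 and 2, within 43.3 to 48.2 in control, and at 76.0 in library 3. EIF3L was at 38.0 and 44.2 CPM in libraries 1 and 2 and at 99.5 in library 3, against 71.8 to 80.7 in control. The mRNA of EIF4EBP1 was thus above control in libraries 1 and 2 only, and that of EIF4E in library 3 only. EIF4EBP2, the other 4E-binding protein, did not split as EIF4EBP1 did. It was at 107 and 99.0 CPM in libraries 1 and 2 and at 127 in library 3, against 94.0 to 104 in control.

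A contrast between library 3 and libraries 1 and 2 was also seen among start and elongation factors. EIF1, which guards the choice of the start codon, was at 713 and 717 CPM in knockdown libraries 1 and 2 and at 354 in library 3, against 413 to 466 in control. EIF5A was at 1983 and 1869.8 CPM in libraries 1 and 2 and at 889.6 in library 3, against 1137.5 to 1265 in control. EIF6, which keeps large subunits from joining too early, was at 86.7 and 64.3 CPM and at 37.4 in library 3, against 63.4 to 69.8 in control. In all 3 genes library 3 lay below every control.

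**Figure D2:**
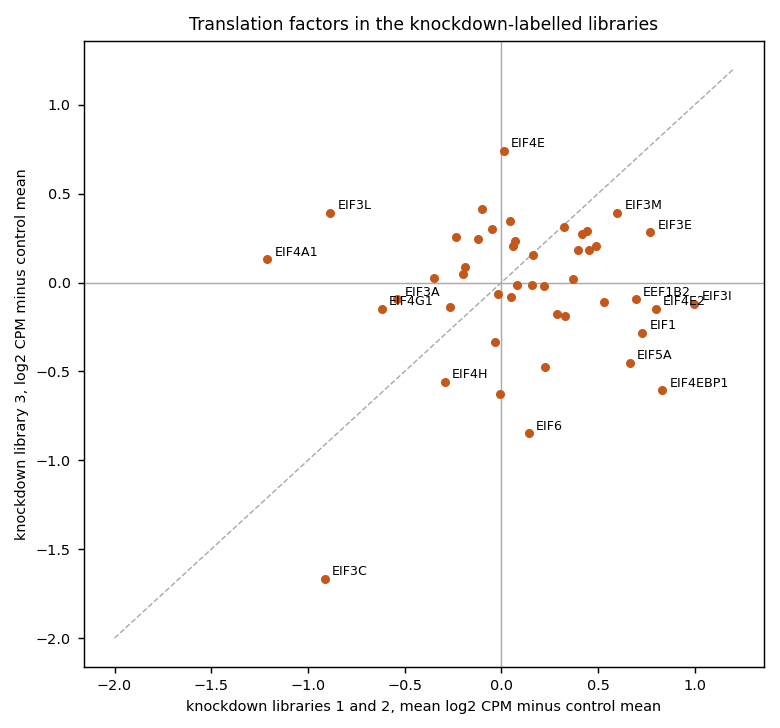
Each point is 1 of the 46 translation factors, with the mean of knockdown libraries 1 and 2 (horizontal) and knockdown library 3 (vertical), both as log2 CPM minus the control mean; the dashed line marks equal values. EIF4EBP1, EIF3I and EIF5A lie at the lower right and EIF4A1 and EIF3L at the upper left, while EIF3C is low on both axes and EIF3E and EIF3M are high on both.

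Left without library 3, the comparison with control called 25 members, 17 higher and 8 lower, where 32.9% of all genes were called, 18.1% higher and 14.8% lower. EIF3I then had a log2 fold change of 1.00 and EIF4EBP1 one of 0.83. Both were named above for their gaps between library 3 and libraries 1 and 2, so these values add no separate evidence. With library 3 as the only knockdown-labelled library, 10 members were called against 11.4% of all genes, its spread being taken from the other groups. EIF4E (0.71) and GSPT1 (0.39) were then higher, as were 2.34% of all genes, and EEF1D, EEF2, EIF5A, EIF6, EIF3C, EIF3G, EIF4H and EIF4EBP1 lower, as were 9.07%. EIF3C and EIF4H were lower in both fits, at -0.96 and -0.30 without library 3 and at -1.77 and -0.59 with library 3 alone. In library 3, EIF3C held 31 counts and its copy EIF3CL 26, where EIF3CL held 8 to 20 in the other libraries. How far the assignment of reads between these copies enters the -1.77 was not tested.

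Rescue and knockdown-labelled libraries were compared to see which factors differ when UGT2B28 is overexpressed on top of the labelled knockdown. By edgeR, 12 of the 46 members passed, 26.1% of them, against 9.83% of all genes. The 9 that fell were EEF1B2, EIF1AX, EIF2A, EIF2S1, EIF3E, EIF3F, EIF3H, EIF3I and EIF3M (all genes: 5.39% lower), and the 3 that rose were EIF3A, EIF3C and EIF4H (all genes: 4.44% higher). The members' median log2 fold change was -0.18, with 17 positive and 29 negative, and that of all genes was -0.00. With library size alone the all-gene median became 0.24 and the members' 0.06, and 4 members were called, 2 in each direction, with the other 8 keeping their sign. Of all genes, 9.27% were called with library size alone, 7.9% higher and 1.37% lower. This comparison and the one above share the knockdown-labelled libraries, so a member high in these is counted in both.

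Of the 13 eIF3 subunits, 2 rose and 5 fell. eIF3 has a core of 8 subunits, EIF3A, EIF3C, EIF3E, EIF3F, EIF3H, EIF3K, EIF3L and EIF3M, and a mobile part built on EIF3B, EIF3G and EIF3I. EIF3E fell by 0.98 on the log2 scale (SE 0.16, edgeR adjusted p = 0.00909), from 355, 392 and 266 CPM to 167, 182 and 163, and every rescue library lay below every knockdown-labelled one. EIF3M (chr11:32583798-32606262, plus strand) went from 239, 255 and 214 CPM to 142, 155 and 165, also without overlap (log2 fold change -0.62, SE 0.12, edgeR adjusted p = 0.0148).

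The other core subunits that fell did so by less. EIF3F (chr11:7970251-8001862, plus strand) went from 282, 270.2 and 216 CPM to 177, 182 and 172, with a log2 fold change of -0.53 (SE 0.13, edgeR adjusted p = 0.0275). EIF3H (chr8:116642130-116766925, minus strand) went from 264, 263 and 236 CPM to 190.3, 198 and 191 (log2 fold change -0.40, SE 0.11, edgeR adjusted p = 0.0466). The groups did not overlap in either gene. EIF3K, at 131, 131 and 83.9 CPM against 80.9, 77.1 and 78.3, had a log2 fold change of -0.55 and missed the threshold (SE 0.16, edgeR adjusted p = 0.0538).

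EIF3I fell by 0.88 on the log2 scale (SE 0.24, edgeR adjusted p = 0.0464), and here the groups overlapped: rescue library 3, at 239 CPM, was above knockdown library 3, at 227, while knockdown libraries 1 and 2 were at 505 and 479. Without knockdown libraries 1 and 2 its log2 fold change was -0.03. In the other direction, EIF3A, the largest subunit and scaffold of eIF3 (chr10:119033670-119080823, minus strand), went from 180.1, 181 and 245 CPM to 287, 316 and 281. Its groups did not overlap, and the log2 fold change was 0.54 (SE 0.14, edgeR adjusted p = 0.0409). EIF3C, with the limit on its reads given above, rose from 6.73, 5.03 and 3.37 CPM to 10.9, 12.8 and 10.04, a change of 1.16 (log2, SE 0.27, edgeR adjusted p = 0.0270). Of the subunits that did not pass, EIF3B was at 0.29 and EIF3L at 0.48, and EIF3D, EIF3G and EIF3J were within 0.08 of 0. Leaving out EIF3C and EIF3L, 1 of 11 subunits rose and 5 fell.

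**Figure D3:**
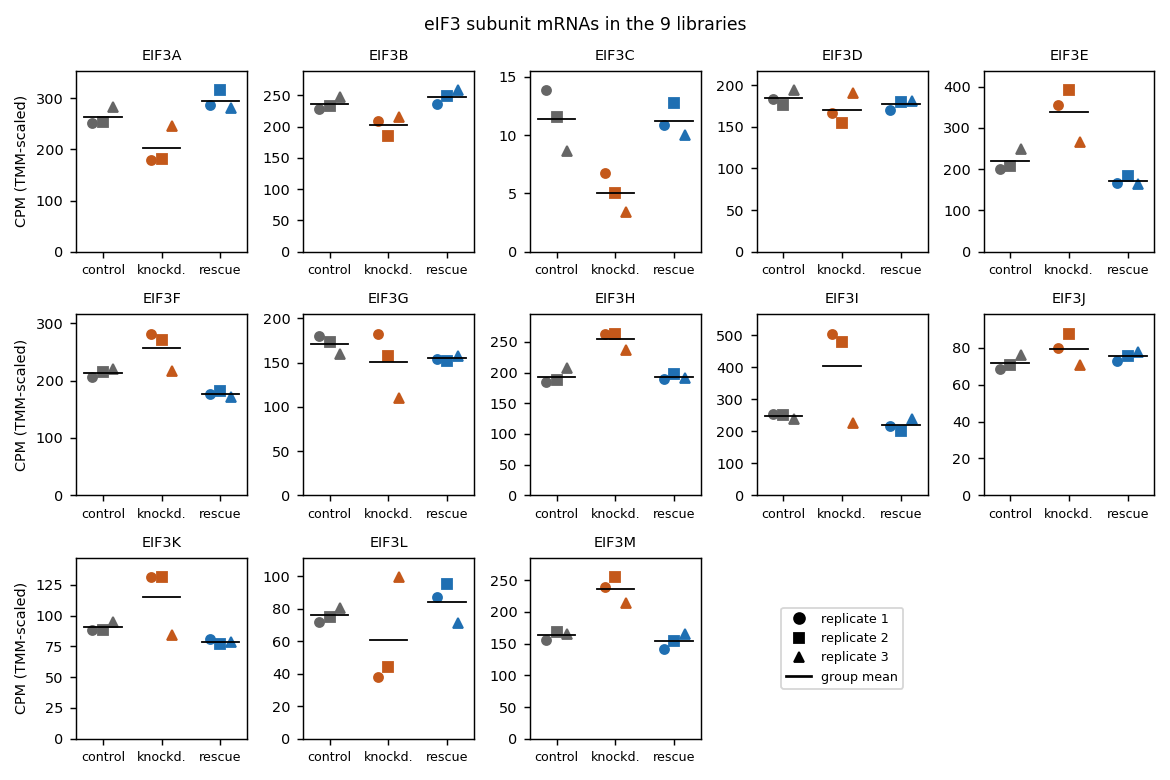
CPM of the 13 eIF3 subunits in each library, with the group as colour and position, the replicate as the symbol, the group mean as a line and every vertical axis from 0. EIF3E, EIF3H and EIF3M were higher in all 3 knockdown-labelled libraries than in any other library, EIF3I in libraries 1 and 2 only, and EIF3A and EIF3C were lower in all 3.

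Of the 6 scanning and start codon factors, 2 fell and none rose. EIF2A, a tRNA-binding initiation factor distinct from eIF2 (chr3:150546678-150584242, plus strand), went from 163, 169 and 149.9 CPM to 108, 114 and 123 (log2 fold change -0.48, SE 0.12, edgeR adjusted p = 0.0279). EIF1AX, which works with EIF1 in scanning (chrX:20124518-20141844, minus strand), went from 89.4, 106 and 80.0 CPM to 70.4, 68.0 and 65.7 (log2 fold change -0.43, SE 0.12, edgeR adjusted p = 0.0491). The groups did not overlap in either gene. EIF1, at -0.47 (SE 0.23, edgeR adjusted p = 0.207), did not pass. Knockdown library 3, at 354 CPM, was below the rescue libraries, at 406, 410.3 and 468. EIF5B was at -0.38, EIF5, which triggers GTP hydrolysis on eIF2 at the start codon, at -0.21, and EIF6 at 0.04, none past the threshold.

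Of the 3 eIF2 subunits, EIF2S1 fell, and the other two were at -0.18 (EIF2S2) and -0.21 (EIF2S3) without passing. EIF2S1 is the subunit whose phosphorylation by stress kinases lowers initiation (chr14:67359997-67386516, plus strand). It went from 129.9, 128 and 128 CPM, an SD of 1.09, to 100.4, 97.7 and 83.7 (log2 fold change -0.45, SE 0.11, edgeR adjusted p = 0.0346). In all 3 subunits the rescue libraries lay below every knockdown-labelled library. Of the 5 subunits of eIF2B, which reloads eIF2 with GTP, none passed, and their log2 fold changes ran from -0.31 (EIF2B3) to 0.09 (EIF2B2), with EIF2B1 at -0.20, EIF2B4 at -0.19 and EIF2B5 at -0.00.

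Of the 6 elongation genes tested, which include the kinase EEF2K, only EEF1B2 fell. EEF1B2 is a subunit of the exchange factor that recharges eEF1A with GTP (chr2:206159585-206162928, plus strand). It went from 546, 572 and 323 CPM to 273, 291 and 289.7 (log2 fold change -0.76, SE 0.19, edgeR adjusted p = 0.0343). The groups did not overlap, though knockdown library 3 was closer to the rescue libraries than to the other knockdown libraries. EEF1A1 was at 8158, 8285 and 5956 CPM in knockdown-labelled and at 5573, 6321 and 5804 in rescue libraries, which overlap (log2 fold change -0.34, SE 0.19, edgeR adjusted p = 0.271). EEF2K, the kinase that switches off eEF2, had a log2 fold change of 0.41 (SE 0.13, edgeR adjusted p = 0.0746) with no overlap, at 44.1, 49.5 and 60.6 CPM against 67.5, 63.9 and 74.3. EEF2 itself was at 0.06 (SE 0.15, 95% confidence interval -0.28 to 0.39). EIF5A, at -0.55, and EEF1D, another subunit of the exchange factor, at -0.08, did not pass either.

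Of the 9 cap-binding and helicase factors, EIF4H rose. It stimulates the eIF4A helicase (chr7:74174245-74197101, plus strand), and it went from 250.5, 254 and 209.8 CPM to 342, 372 and 334 (log2 fold change 0.55, SE 0.13, edgeR adjusted p = 0.0263), with no overlap. EIF4A1 had the largest positive log2 fold change of the members, 1.22, and missed the threshold (SE 0.37, edgeR adjusted p = 0.0612). It was at 11.2, 21.5 and 18.5 CPM in rescue, and the groups overlapped. EIF4G1, at 0.51 (SE 0.15, edgeR adjusted p = 0.0612), was at 617, 627 and 569 CPM against 398, 355 and 521, without overlap. Its relatives EIF4G2 and EIF4G3 were at -0.11 and 0.20, and EIF4A2, a helicase close to EIF4A1, was at -0.38, none past the threshold. EIF4E2 was at -0.63, EIF4E at -0.30 and EIF4B, a partner of the eIF4A helicase, at 0.03, also short of it.

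Neither 4E-binding protein and neither release factor passed. EIF4EBP1 was at -0.74 (SE 0.30, edgeR adjusted p = 0.132), with rescue libraries at 141, 141 and 169 CPM between the 117 of knockdown library 3 and the 308 and 328 of the other knockdown libraries. EIF4EBP2 was at -0.06. ETF1, which reads stop codons, was at 0.24, and GSPT1, its GTPase partner, at 0.10.

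**Figure D4:**
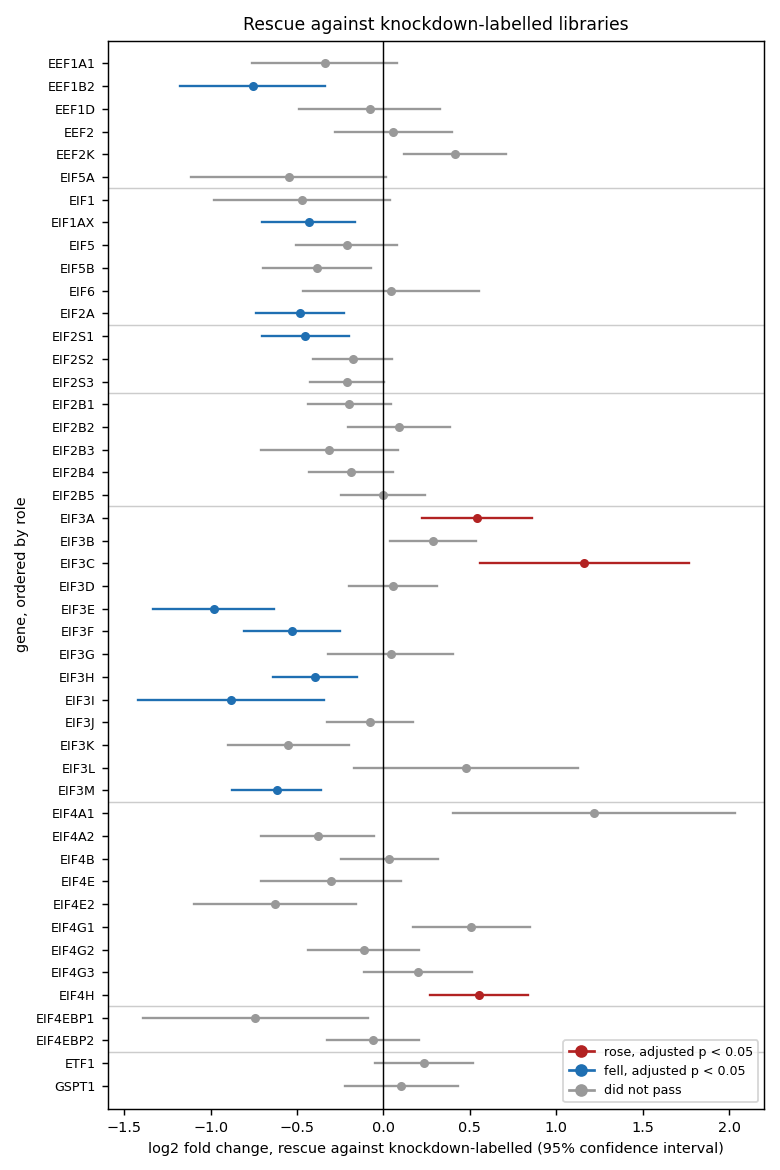
Log2 fold change of each of the 46 translation factors in rescue against knockdown-labelled libraries, with 95% confidence intervals from the edgeR fit and genes ordered by role. The 9 members that fell and the 3 that rose at an adjusted p under 0.05 are coloured, and the widest intervals belong to EIF4A1, EIF3L and EIF4EBP1.

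In 18 members the rescue and knockdown-labelled libraries did not overlap, 6 higher and 12 lower, against 28.6% of all genes, 14.6% higher and 14% lower. The number called depended on which libraries of any group were kept. It was 0 with only the 2 groups compared in the fit, where 0.0426% of all genes were called. With control library 1, 2 or 3 left out it was 3, 2 and 6 (4.86%, 4.62% and 6.13% of all genes). With rescue library 1, 2 or 3 left out it was 0, 1 and 1 (0.776%, 1.64% and 1.62%). It was 29 without knockdown library 3, 11 rising and 18 falling, where 39% of all genes were called, 18.6% rising and 20.4% falling. With library 3 as the only knockdown-labelled library it was 11, 6 of them among the 12, where 19.5% were called. EIF3E was the most stable call, past the threshold in 19 of 21 other settings, followed by EIF3C and EIF3M in 14 and EIF4H in 12, whereas EIF1AX was called in 3.

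Setting rescue against control libraries addresses how far the rescued cells lie from untargeted ones. No member passed in edgeR (0 of 46, against 0.149% of all genes), and DESeq2 and limma-voom also called 0, where they called 1.94% and 0.0774% of all genes. EIF3E alone had an unadjusted p under 0.05, where 10.5% of all genes did and 4.24% did as lower, with a log2 fold change of -0.36 (SE 0.16, edgeR adjusted p = 0.450). The rescue libraries, at 167, 182 and 163 CPM, were all below the controls, at 200.5, 208 and 249.9. The next largest negative changes were -0.28 in EEF1B2 and -0.27 in EIF3F, and the largest positive ones 0.61 in EIF4A1, 0.20 in EEF2K and 0.19 in GSPT1, none past the threshold.

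The members' median in this comparison was -0.05, with 15 positive and 31 negative, and that of all genes was -0.01. The groups did not overlap in 14 members, against 26.4% of all genes, 12.8% higher and 13.6% lower. EEF2K, EIF4G3 and GSPT1 were higher in every rescue library, and EEF1A1, EEF1B2, EEF2, EIF5, EIF2S2, EIF3E, EIF3F, EIF3G, EIF3K, EIF4A2 and EIF4EBP1 were lower. EEF1A1 was at 5573, 6321 and 5804 CPM in rescue and at 6563, 6478 and 7162 in control, a log2 fold change of -0.19 (SE 0.19, 95% confidence interval -0.61 to 0.23). A p that misses the threshold does not show that these levels are alike.

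Neither coding length nor the start of the transcript was used in choosing the members. Across the 46 members, Spearman's correlation of coding length with the log2 fold change was -0.54 where knockdown-labelled and control libraries were compared, 0.52 where rescue and knockdown-labelled libraries were, and 0.32 where rescue and control libraries were. Over the 12458 protein-coding genes with a length it was -0.34, 0.38 and 0.16. These correlations run across genes of the same libraries, which are not replicates, and the first 2 share the knockdown-labelled libraries.

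In rescue against knockdown-labelled libraries, 1 of the 23 members with coding sequences below 1257 bases rose (EIF4H) and 7 fell. Their median log2 fold change was -0.40. Of the 23 longer ones, 2 rose (EIF3A and EIF3C) and 2 fell (EIF2A and EIF3E), with a median of 0.03. Over all genes tested, whatever their length, 4.44% rose and 5.39% fell. The longest members, EIF4G1, EIF4G3 and EIF3A, were at 0.51, 0.20 and 0.54, while EIF5B, the GTPase that joins the subunits, was an exception at -0.38. After a correction for coding length and GC content, chosen after seeing the data, 7 members passed, 5 of them among the 12, where 7.63% of all genes did, and the members' median was -0.05. How far length, or a step of library preparation that depends on it, enters these differences was not tested beyond that fit.

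In rescue against knockdown-labelled libraries, 4 of the 11 members with a pyrimidine run at an annotated start fell and none rose. Their median was -0.38. Of the 27 tested members without one, 3 fell and 2 rose, with a median of -0.08. Over all genes tested, 5.39% fell and 4.44% rose. The 8 members with no start in the table are in neither group, among them EIF3E and EIF3H, which fell, and EIF3A, which rose. In knockdown-labelled against control libraries the medians were 0.18 and 0.09, with 9 of 11 and 17 of 27 positive. Members with a run were not alike: EEF2, EIF3D and EIF4B were at 0.06, 0.05 and 0.03 in rescue against knockdown-labelled libraries, while EEF1B2 and EIF3M were at -0.76 and -0.62. Whether members with and without a run differ was not tested.

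**Figure D5:**
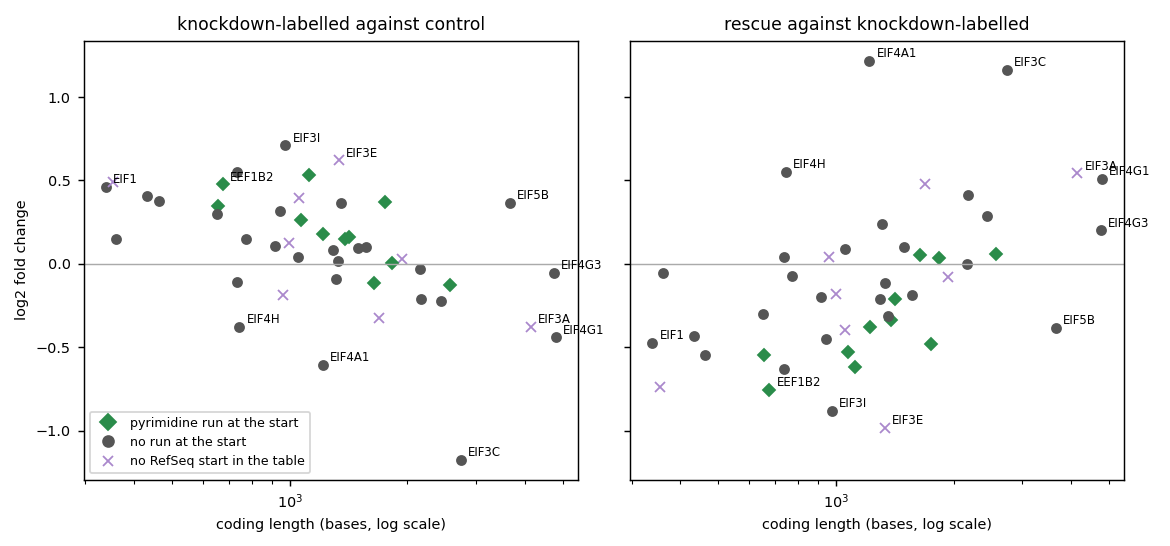
Log2 fold change of the 46 members against coding length in bases (log scale), for knockdown-labelled against control (left) and rescue against knockdown-labelled libraries (right); green diamonds have a pyrimidine run at an annotated start, grey circles have none, and crosses have no start in the RefSeq table. On the right, 18 of the 23 members with coding sequences below 1257 bases lie below 0, and EIF4A1 and EIF4H are the highest of the others. The longest members lie above 0, with EIF5B as an exception.

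Other genes of the translation machinery, 83 in 7 lists of which 80 were tested, gave 0 calls in either comparison with control, where 0.00595% (knockdown-labelled) and 0.149% (rescue) of all genes were called. In rescue against knockdown-labelled libraries 4 rose and 13 fell, 21.2% of those tested, against 9.83% of all genes, 4.44% higher and 5.39% lower. The same all-gene shares stand behind each list's count that follows. Of the eIF2 kinases and phosphatase subunits, 2 of 9 fell: EIF2AK1, the heme-regulated kinase, from 267 ± 4.66 to 193 ± 9.11 CPM (SD, n = 3), and PPP1CC, from 184 ± 5.70 to 131 ± 4.52. Among ribosome rescue and recycling factors, 3 of 11 rose and 2 fell. GTPBP1, a translational GTPase, rose by 0.92 on the log2 scale (SE 0.11, edgeR adjusted p = 0.00605), from 31.0 ± 1.49 to 58.9 ± 0.623 CPM, GCN1, a sensor of collided ribosomes, from 74.7 ± 7.41 to 109 ± 3.06, and ZNF598, a ubiquitin ligase of collided ribosomes, from 137 ± 19.5 to 194 ± 18.9. ABCE1, which splits ribosomes after termination, fell from 129.9 ± 10.9 to 89.1 ± 4.22 CPM, and HBS1L, which helps release stalled ribosomes, from 61.2 ± 1.43 to 43.8 ± 2.35.

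In the list of mTORC1 and S6 kinase genes, 2 of 14 fell: RHEB, the GTPase that activates mTORC1 (log2 fold change -0.67), and PDCD4, an inhibitor of eIF4A (-0.51). Of 15 genes that modify elongation factors, DPH1, of the diphthamide pathway on eEF2, rose by 0.70 on the log2 scale and 4 fell, among them EEF2KMT, an eEF2 methyltransferase (-0.47), and DPH6 (-1.05) and DNAJC24 (-0.55) of the same diphthamide pathway. PAIP2, a repressor of poly(A)-binding protein, fell by 0.55 on the log2 scale as 1 of 5 tested genes of its list, and MTIF3 and MRRF, an initiation and a recycling factor of mitochondria, fell by 1.03 and 0.40 as 2 of 11. None of the 15 tested paralogous and accessory factors passed. Of the 23 cytosolic tRNA synthetases and partners, 4 fell and none rose, with a median of -0.09. Of the 85 cytosolic ribosomal protein genes tested, 18 fell and none rose, with a median of -0.78, against -0.18 for the translation factors. In log2 CPM relative to the control mean, the ribosomal protein median was 0.97, 0.90 and -0.30 in knockdown libraries 1 to 3. In rescue libraries 1 to 3 it was -0.29, -0.26 and -0.02. Knockdown library 3 thus lay with the rescue libraries for these genes. Whether the sets named here differ from each other was not tested.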

How the data were processed

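Read counts per gene were deposited, 1 file for each of the 9 libraries. The tools were FastQC, cutadapt, STAR and HTSeq and the build hg38, per the submitters' processing notes. No source used here gives versions, annotation or strand setting, so overlapping and antisense genes are uncertain. The 5 summary rows of each file were left out (43.7% to 48.7% of all counts on no feature, 2.36% to 3.14% ambiguous, 7.67% to 11.6% aligned to several places).

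All gene rows were fitted together in edgeR 4.0.16 (R 4.3.3): genes filtered with filterByExpr (minimum count 10), TMM scaling, 3 groups, quasi-likelihood F test, 6 residual degrees of freedom, Benjamini-Hochberg adjustment over 16796 genes. Confidence intervals hold 95%. The log2 CPM used a prior count of 2. The fit was tested on simulated data. DESeq2 1.42.0, limma-voom (limma 3.58.1), other scalings and filters, left-out libraries and summed copy rows were alternatives. Coding lengths came from GENCODE release 29 for 96.4% of tested genes.

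Members and lists were chosen with earlier results of these data known. All members could be named, with full statistics for those past the threshold and the 3 largest changes each way, and other translation genes where they passed, up to 3 per list and direction.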

Additional observations from a re-analysis of the deposited data

How the results depend on the processing

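In knockdown-labelled against control libraries, 0 members passed, as under most settings. The count was 2 with library size alone (0.911% of all genes called), 4 without a filter on low counts (2.98%), 6 with the DESeq2 Wald test (6.43%), 10 without knockdown libraries 1 and 2 (11.4%), and 0 to 25 with each library left out in turn, 25 being without knockdown replicate 3 (32.9%). The median log2 fold change was -0.10 with library size alone, -0.024 without knockdown libraries 1 and 2, and 0.024 with the length and GC correction. Without knockdown libraries 1 and 2, 20 of the 46 members changed sign, among them EIF3I (-0.15), EIF4E2 (-0.17) and EIF4A1 (0.11). Of the 20, EIF5A (0.38 with all libraries, -0.48 here), EIF4EBP1 (0.49, -0.63) and EEF1D (0.03, -0.50) were then called lower. With library size alone 14 members turned from positive to negative, and without knockdown replicate 3 there were 4 that changed sign.

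In rescue against knockdown-labelled libraries the smallest edgeR adjusted p among the members was 0.00909, in EIF3E. The count of 12 became 4 with library size alone (9.27% of all genes called) and 0 with only the groups compared (0.0426%). With the length and GC correction the count was 7 (7.63%), of which 5 were among the 12. It ran from 0 without rescue replicate 1 (0.776%) to 29 without knockdown replicate 3 (39%), and was 3, 2 and 6 with control replicate 1, 2 or 3 left out, 3 and 1 with knockdown replicate 1 or 2 left out, and 1 with rescue replicate 2 or 3 left out. The median was 0.0625 with library size alone, -0.039 without knockdown libraries 1 and 2 together, and -0.052 with the length and GC correction, under which EIF1AX changed sign (0.027). In rescue against control libraries the count was 2 with only the groups compared (5.87% of all genes called), 2 without knockdown libraries 1 and 2 (5.27%), and 0 to 3 with each library left out, 3 being without knockdown replicate 3 (7.38%). Where the cause is not the smaller number of libraries, the cause was not tested.

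The labels do not say whether the replicate numbers pair the libraries. Correlations of same-numbered libraries' deviations from their group means ran from -0.35 to 0.08, and those of other pairs from -0.16 to 0.27. The deviations in a group of 3 sum to 0 and so depend on each other, and these correlations cannot decide on pairing. With the number as a replicate block, 3 members passed in rescue against knockdown-labelled libraries (2.63% of all genes called) and 0 in the other comparisons. The smallest change called among the members was in EIF3H, which fell by 0.40 on the log2 scale, and the called member with the fewest counts was EIF3C.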
